A study of Mus musculus with 20 samples.

Results

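Interferon-stimulated genes are the transcripts through which cells answer interferons, and their products block viral entry, viral RNA and protein synthesis and intracellular pathogens. Here 51 of them, of 24421 gene symbols in the count table, were followed in kidneys that had acutely lost fumarate hydratase (Fh1). They were chosen by gene symbol and fall into 12 antiviral Oas, Ifit and Mx genes, 13 other antiviral effectors, 4 genes of ISG15 conjugation, 9 signalling and ADP-ribosylation genes, 10 interferon-inducible GTPases and 3 Ifitm genes. RNA-seq libraries were made from whole kidney of Fh1-/- mice at day 10, Fh1+/+ mice at day 10, Fh1-/- mice at day 5 and Fh1+/+ mice at day 5 after tamoxifen, 5 in each of the 4 groups. Fh1-/- mice carried floxed Fh1 alleles and a tamoxifen-inducible Cre (CreERT2) at both R26 loci, and tamoxifen cut out exons 3 and 4 of Fh1. Fh1+/+ littermates carried the same Cre with wild-type Fh1. All mice, of mixed C57BL/6 and 129/SvJ background and 12 weeks old, received 3 intraperitoneal injections of 2 mg tamoxifen, so the controls shared the drug and the recombinase. The ROSA26 promoter drives this Cre in every cell type, so the deletion was not limited to the tubule. The labels number the libraries without naming animals, and p-values therefore measure the spread between libraries.

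Type I and type III interferons act through receptors whose JAK kinases lead to a complex with STAT2 and IRF9 that binds the interferon-stimulated response element. Interferon gamma acts through a receptor of its own, and its early targets carry the gamma-activated site. The Oas, Ifit and Mx genes are classical targets of the first route, whereas guanylate-binding proteins (Gbp) and immunity-related GTPases (Irgm and relatives) are classical targets of interferon gamma. In kidney the same genes can be expressed by tubule cells, endothelium and resident leukocytes.

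Total counts were between 16654829 and 25001294 per library. Levels are given as CPM, counts scaled by library size with the trimmed mean of M values (TMM). The thick ascending limb protein Umod, a marker of the tissue, was at 4485 CPM or more in every library. On the first principal component of all genes (42.8% of the variance) Fh1-/- day 10 replicates 1 and 3 lay apart from all others, and Spp1, the injury-induced osteopontin, took 10.3% and 9.50% of their counts. They are named below as the 2 apart libraries, and results that rest on them are also given without them. Other nephron markers were low in both: the proximal tubule transporter Slc34a1 was at 369 and 503 CPM, against 1903 to 7477 CPM in the other 18 libraries, the thick ascending limb transporter Slc12a1 at 75.5 and 68.4 CPM, against 810.1 to 1909 CPM, and the 8 proximal tubule markers summed to 4225 and 4363 CPM, against 8340 CPM or more. The part of these markers in the levels of the interferon-stimulated genes was not tested. Spp1 was also raised in Fh1-/- day 10 replicates 4 and 5, at 1.19% and 1.30% of counts. It was at 0.278% in replicate 2 and at 0.0792% to 0.235% in Fh1+/+ libraries. On the first component replicates 4 and 5 were at −29.9 and −30.3, shifted to the same side as the apart libraries (−125 and −128). Fits without the apart libraries still hold replicates 4 and 5. The summed Y-linked signal (4 transcripts) did not exceed 1.03 CPM in 8 libraries and reached at least 97.2 CPM in the other 12. The mice were of both sexes per the study's methods, and the labels give no sex. A count over the whole Fh1 gene does not check the genotype.

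The members spanned a wide range of level. Divided by exon length, the mean over all 20 libraries was between 0.132 CPM per kb for Oas3 and 80.7 CPM per kb for Ifitm2, with a median of 4.24. Ifitm2, Ifitm3 and Lgals3bp, a secreted glycoprotein that binds galectins, stood highest on this scale, and Oas3, Mx1 and Oas1g lowest, at 0.132, 0.201 and 0.259 CPM per kb. 10 of the 51 genes lie on chromosome 11, 7 on chromosome 5 and 6 on chromosome 16. Some neighbours are close copies of each other: 57.6% of the 50-base words in Oas1a transcripts also occur in Oas1g, 51.2% of those of Ifit3 occur in Ifit3b, 79.4% of those of Tgtp1 occur in Tgtp2 and 65% of those of Gbp6 occur in another gene model, Gm43302. Of the words of Ifitm2, 48.5% occur in other genes, 36.1% in the gene model Gm45717. Reads of all these members are uncertain as to their gene.

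In Fh1-/- kidneys at day 10 the interferon-stimulated genes split by subgroup. The Oas, Ifit and Mx genes were mostly below the Fh1+/+ level (9 of 11 tested, median log2 fold change −0.50), as were the other antiviral effectors (8 of 13, median −0.30). The GTPases were mostly above it (9 of 10, median 1.20), as were the signalling and ADP-ribosylation genes (8 of 9, median 0.50). In the fit without the apart libraries neither of these 2 subgroups kept its direction. The GTPases then had a median of −0.68 (1 of 10 above 0) and the signalling and ADP-ribosylation genes a median of −0.065 (4 of 9 above 0). The Oas, Ifit and Mx genes had −0.72 and the other antiviral effectors −0.96. Over the 50 members tested, which left out Oas1g, the median was 0.13 and 27 were above 0 (54%), against −0.0007 and 49.9% over all 14360 genes. In the edgeR quasi-likelihood fit, 0 of 50 members passed an adjusted p under 0.01 with a log2 fold change over 0.58 (0.0557% of all genes did), and at an adjusted p under 0.05 alone 1 did, Rsad2 (2.83% of all genes). Before adjustment 5 members were higher and 12 lower with p under 0.05, that is 10% and 24%, against 15.1% and 11.9% of all genes. The count of higher members moved with single libraries: in fits without 1 library it was 2 (without Fh1-/- replicate 1 or 3) to 14 (without Fh1-/- replicate 2). The count of lower members was 8 to 12. The shares of all genes in those fits were not counted, so whether this movement is particular to the members was not tested. In DESeq2, 1 member passed upwards, Gbp7, and 3 downwards, Rsad2, Ifi44 and Oasl2 (3.26% and 1.95% of all genes). Every Fh1-/- library lay below every Fh1+/+ library for 3 members, Rsad2, Ifi44 and Oas1a (3.68% of all genes did), and above for 0 (3.96% of all genes did). In whole kidney, fewer cells of a type and less RNA per cell cannot be told apart.

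**Figure D1:**
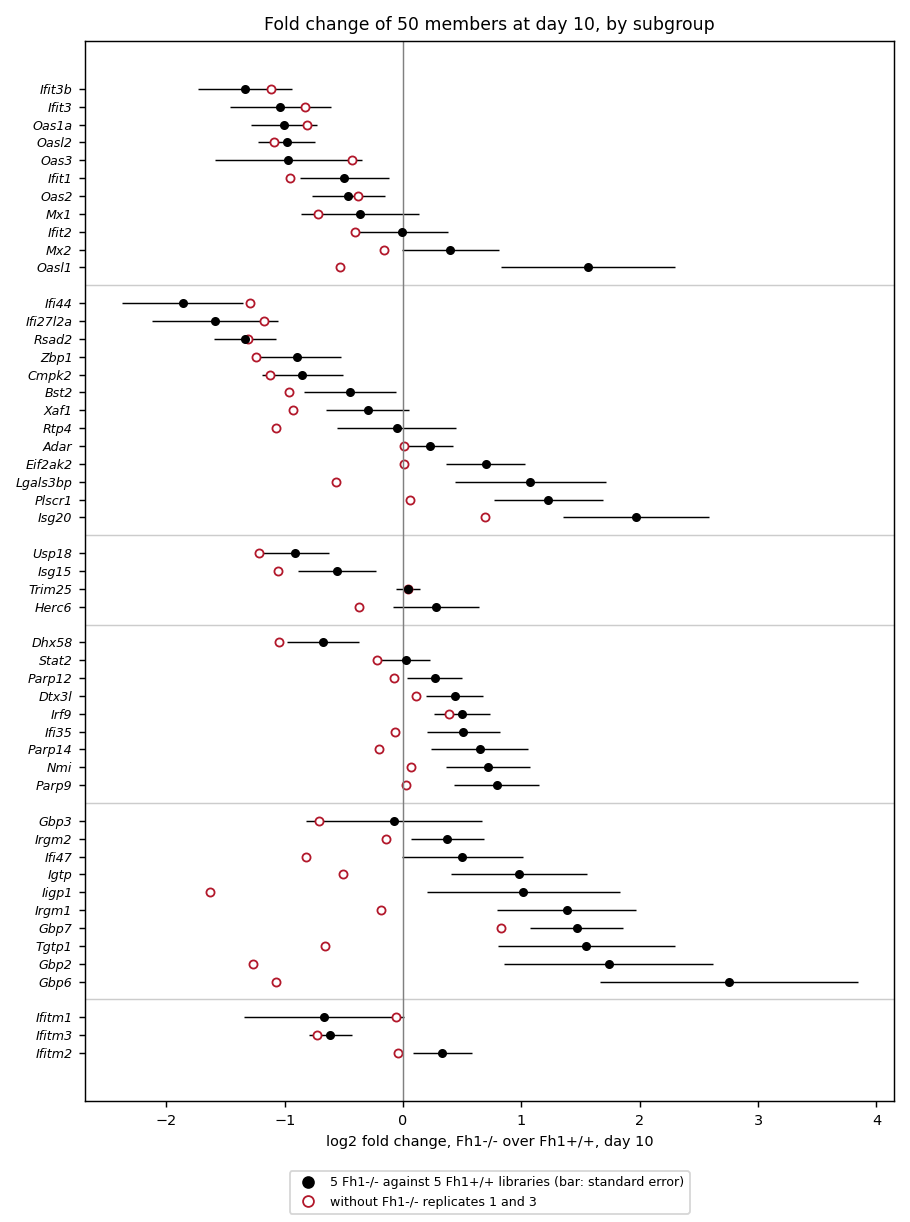
Log2 fold change of 50 members at day 10 (Fh1-/- over Fh1+/+, horizontal axis), ordered by subgroup from the Oas, Ifit and Mx genes at the top to the Ifitm genes at the bottom. Black points with bars are estimates with standard errors from all 10 libraries, and open points are estimates without Fh1-/- replicates 1 and 3. The open points of 9 of 10 GTPases lie below 0, whereas their black points lie above 0 for 9 of 10.

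The 3 members whose groups did not overlap included Rsad2 (viperin), a radical-SAM enzyme that makes a chain-terminating nucleotide. Its level in Fh1-/- kidneys at day 10, replicates 1 to 5, was 15.2, 18.4, 11.8, 7.10 and 15.6 CPM, against 31.4, 47.7, 39.0, 23.4 and 29.6 CPM in Fh1+/+ kidneys. All 5 Fh1-/- libraries were low, the 2 apart libraries included (edgeR log2 fold change −1.33, SE 0.26, adjusted p = 0.0376, −1.31 without the apart libraries). Rsad2 lies at chromosome 12, 26442746 to 26456452, minus strand of GRCm38, head to head with Cmpk2 (chromosome 12, 26469204 to 26479837, plus strand), a mitochondrial nucleotide kinase gene. Cmpk2 was at 12.5, 7.23, 8.81, 3.97 and 9.34 CPM in Fh1-/- kidneys and at 9.46, 23.3, 20.4, 9.70 and 12.4 CPM in Fh1+/+ kidneys. The groups of Cmpk2 overlapped, and its fold change was smaller (edgeR log2 fold change −0.85, SE 0.34, adjusted p = 0.148).

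Ifi44, an interferon-induced cytoplasmic protein gene on chromosome 3, 151730922 to 151749960, minus strand, was at 1.60, 7.28, 1.07, 6.33 and 7.55 CPM in Fh1-/- kidneys at day 10, against 14.4, 27.1, 20.7, 12.5 and 12.2 CPM in Fh1+/+ kidneys (edgeR log2 fold change −1.86, SE 0.51, adjusted p = 0.0722). The 2 apart libraries were the lowest of all 20, and the other 3 Fh1-/- libraries were still below every Fh1+/+ library (−1.29 without the apart libraries). Oas1a, an oligoadenylate synthetase that activates RNase L (chromosome 5, 120896256 to 120907521, minus strand), was at 1.04, 1.74, 0.853, 1.49 and 0.849 CPM in Fh1-/- and 1.81, 3.05, 2.71, 2.33 and 2.08 CPM in Fh1+/+ kidneys (edgeR log2 fold change −1.01, SE 0.28, adjusted p = 0.0722). These levels are low, and reads of Oas1a may belong to Oas1g.

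Their promoters are shown because these 3 genes are the members whose groups did not overlap at day 10. Each runs from 250 bases before to 50 bases after the RefSeq start site on the gene's strand (GRCm38.p6), with capitals marking the core of the interferon-stimulated response element, GAAANNGAAA on either strand, or of the gamma-activated site, TTCNNNGAA. Rsad2 has its promoter at chr12:26456403-26456702, minus strand, Oas1a at chr5:120907476-120907775, minus strand, and Ifi44 at chr3:151749861-151750160, minus strand.
Rsad2: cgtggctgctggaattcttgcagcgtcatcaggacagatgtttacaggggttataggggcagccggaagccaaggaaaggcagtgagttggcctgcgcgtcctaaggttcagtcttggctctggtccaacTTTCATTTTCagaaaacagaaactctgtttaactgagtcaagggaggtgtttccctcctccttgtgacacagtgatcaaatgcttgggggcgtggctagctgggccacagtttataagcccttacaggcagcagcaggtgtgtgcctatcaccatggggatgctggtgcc
Oas1a: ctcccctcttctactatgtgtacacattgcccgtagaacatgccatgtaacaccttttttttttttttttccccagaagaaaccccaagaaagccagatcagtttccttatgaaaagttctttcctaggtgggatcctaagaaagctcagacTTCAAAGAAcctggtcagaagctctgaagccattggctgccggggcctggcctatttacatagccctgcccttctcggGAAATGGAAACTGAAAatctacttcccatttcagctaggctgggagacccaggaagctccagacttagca
Ifi44: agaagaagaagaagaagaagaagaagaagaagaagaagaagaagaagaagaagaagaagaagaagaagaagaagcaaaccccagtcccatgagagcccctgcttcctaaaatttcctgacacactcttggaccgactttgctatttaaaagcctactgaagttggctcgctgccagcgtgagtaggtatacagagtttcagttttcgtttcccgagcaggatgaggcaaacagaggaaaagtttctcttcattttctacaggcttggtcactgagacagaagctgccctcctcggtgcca
Rsad2 held 1 response element core, from −120 to −111 relative to the start site. Oas1a held 2 that overlap, from −20 to −11 and −14 to −5, and 1 gamma-activated site core from −98 to −90. The Ifi44 window held neither. RefSeq promoters were matched for 39 of the 51 members, some with several start sites. A response element core was in 20 of their 46 promoters (43.5%), against 3.44% of all 32851 promoters, and a gamma-activated site core in 13 (28.3%), against 8.3%. By gene, the response element core was found in 6 of 9 Oas, Ifit and Mx genes and 7 of 8 GTPases, and the gamma-activated site core in 2 of 9 and 4 of 8. Such matches describe the letters only.

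Among the antiviral Oas, Ifit and Mx genes, Oasl2, an Oas-like gene, was tightly grouped, with levels of 7.43, 7.23, 9.66, 7.10 and 6.53 CPM in Fh1-/- kidneys at day 10, against 8.53, 19.4, 21.1, 12.9 and 12.8 CPM in Fh1+/+ kidneys (edgeR log2 fold change −0.98, SE 0.24, adjusted p = 0.056). Only the lowest Fh1+/+ library fell inside the Fh1-/- range. Ifit3, whose product holds Ifit complexes on foreign RNA, was at 10.3, 10.3, 10.4, 7.43 and 27.1 CPM in Fh1-/- and 12.7, 49.5, 28.4, 26.5 and 17.2 CPM in Fh1+/+ kidneys (edgeR log2 fold change −1.04, SE 0.43, adjusted p = 0.154). Of the Fh1-/- libraries replicate 5 alone was inside the Fh1+/+ range. Mx1, a dynamin-like GTPase against influenza viruses that is defective in many inbred mouse strains, was barely transcribed, at 0.798, 0.952, 0.924, 0.165 and 0.358 CPM in Fh1-/- and 0.414, 1.38, 1.05, 0.583 and 0.618 CPM in Fh1+/+ kidneys, and its groups overlapped (edgeR log2 fold change −0.37, SE 0.50, adjusted p = 0.648). The exceptions in the subgroup were Oasl1 and Mx2. Oasl1, which restrains translation of Irf7 mRNA in mice, was at 25.4, 3.14, 25.6, 2.92 and 2.15 CPM in Fh1-/- kidneys, against 2.02, 5.35, 5.08, 4.77 and 2.64 CPM in Fh1+/+ kidneys, high in the 2 apart libraries alone (1.56 with them, −0.53 without). Without those libraries all 11 genes of the subgroup had a log2 fold change below 0 (median −0.72).

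**Figure D2:**
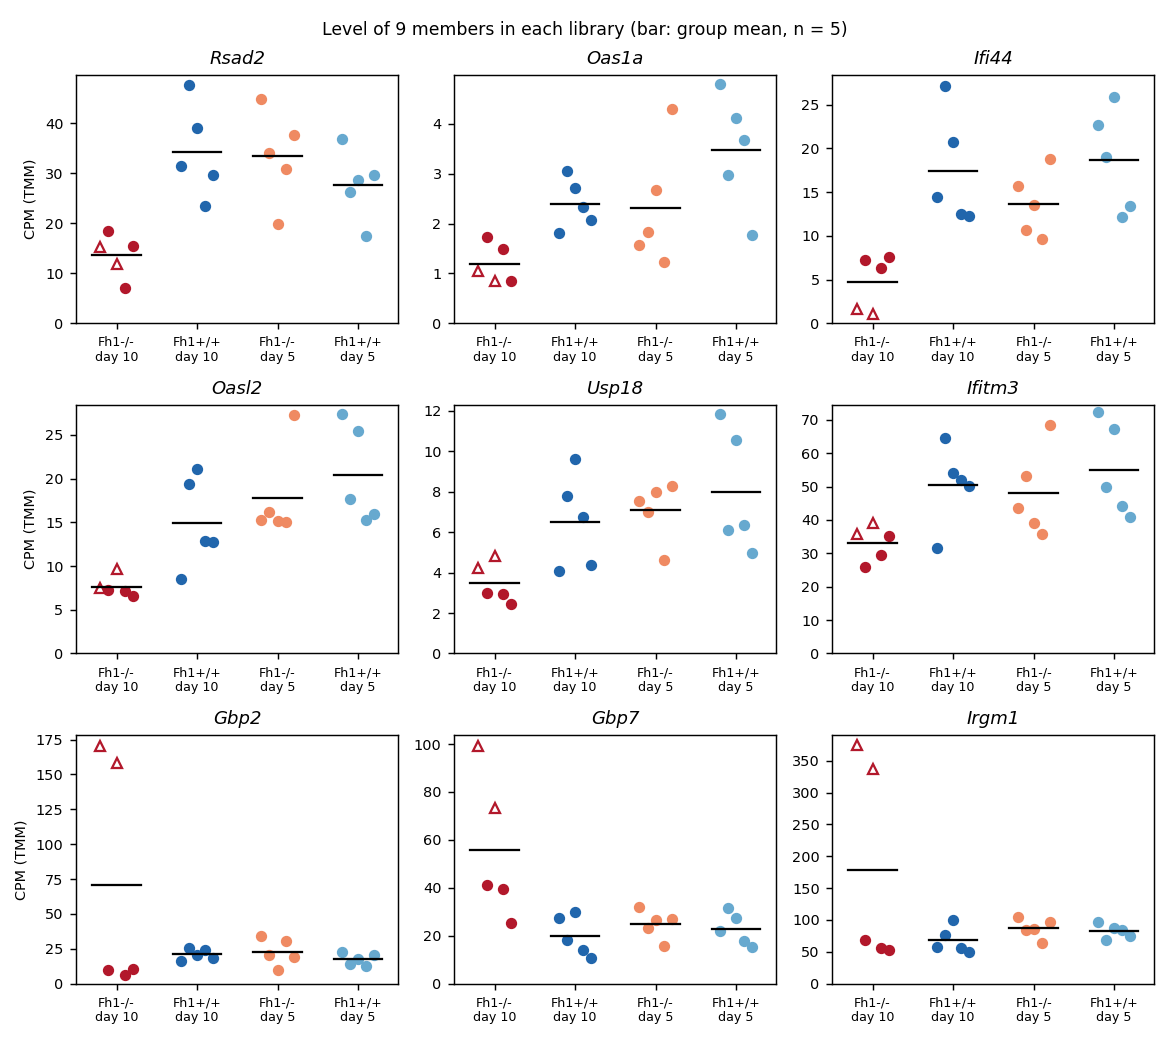
Level in CPM (TMM, linear axes from 0) of 9 members in each of the 20 libraries. Points are libraries, bars are means of 5, and open triangles are Fh1-/- day 10 replicates 1 and 3. Rsad2, Oas1a and Ifi44 show no overlap between the genotypes at day 10, whereas the 2 triangles alone lift the Fh1-/- means of Gbp2 and Irgm1.

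The other antiviral effectors went both ways. Isg20, an RNA exonuclease, was at 21.6, 1.29, 24.7, 5.51 and 8.05 CPM in Fh1-/- kidneys at day 10 and at 3.31, 3.14, 3.21, 2.76 and 3.09 CPM in Fh1+/+ kidneys (edgeR log2 fold change 1.97, SE 0.61, adjusted p = 0.0901). It was above the Fh1+/+ range in 4 of 5 Fh1-/- libraries and furthest in the 2 apart ones, without which its log2 fold change was 0.69. Lgals3bp was at 521, 79.1, 589, 84.7 and 96.0 CPM in Fh1-/- kidneys, against 76.7, 175, 217, 101 and 77.0 CPM in Fh1+/+ kidneys (edgeR log2 fold change 1.08, SE 0.64, adjusted p = 0.288). Its 2 high libraries were again the apart ones, and without them its log2 fold change turned to −0.57. Plscr1, a phospholipid scramblase, was high in them too, with 149 and 145 CPM in the apart libraries and 30.2 to 42.3 CPM in Fh1+/+ kidneys (log2 fold change 1.23, 0.06 without the apart libraries). Zbp1, a sensor of Z-form nucleic acids, and Ifi27l2a were on the lower side, with log2 fold changes of −0.90 and −1.59 and adjusted p = 0.16 and 0.103 from edgeR. Adar, the RNA-editing deaminase, and Eif2ak2, the kinase PKR that halts translation, had log2 fold changes of 0.23 and 0.70. Both were highest of all 20 libraries in the apart ones, and without them the values were 0.0053 for Adar and 0.0072 for Eif2ak2.

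In ISG15 conjugation, the ubiquitin-like Isg15 was at 5.28, 2.86, 6.96, 2.09 and 3.80 CPM in Fh1-/- kidneys at day 10 and at 4.29, 6.46, 8.51, 6.84 and 4.66 CPM in Fh1+/+ kidneys (edgeR log2 fold change −0.56, SE 0.33, adjusted p = 0.283). The groups overlapped, with replicates 1 and 3 the highest of the Fh1-/- libraries. Usp18, which removes ISG15 from proteins and damps the type I interferon receptor, was at 4.24, 2.97, 4.83, 2.92 and 2.46 CPM in Fh1-/- and 4.09, 7.80, 9.62, 6.73 and 4.38 CPM in Fh1+/+ kidneys (edgeR log2 fold change −0.92, SE 0.29, adjusted p = 0.0919). Trim25, the ubiquitin ligase of RIG-I signalling, was level, at 98.0, 101, 91.5, 95.3 and 77.4 CPM in Fh1-/- and 94.1, 75.6, 91.7, 94.4 and 91.7 CPM in Fh1+/+ kidneys (edgeR log2 fold change 0.04, SE 0.10, adjusted p = 0.811). Herc6, the main ISG15 ligase of mice, had a log2 fold change of 0.28, which turned to −0.37 without the apart libraries, its highest of all 20 at 21.7 and 17.8 CPM.

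Of the signalling and ADP-ribosylation genes, Irf9, the DNA-binding partner of STAT2, was at 37.2, 21.5, 38.7, 36.7 and 34.3 CPM in Fh1-/- kidneys at day 10, against 17.2, 28.2, 36.0, 19.4 and 18.02 CPM in Fh1+/+ kidneys. In 4 of 5 Fh1-/- libraries Irf9 was at 34.3 CPM or more, near the highest Fh1+/+ library (edgeR log2 fold change 0.50, SE 0.24, adjusted p = 0.2, 0.39 without the apart libraries). Dhx58 (LGP2), a RIG-I-like helicase, was the exception in the other direction, at 2.95, 1.79, 2.56, 1.32 and 1.52 CPM in Fh1-/- and 2.64, 5.12, 2.38, 2.92 and 3.03 CPM in Fh1+/+ kidneys (edgeR log2 fold change −0.68, SE 0.30, adjusted p = 0.179). Parp9, which acts with the ubiquitin ligase Dtx3l, was at 65.0, 20.2, 62.5, 30.3 and 17.5 CPM in Fh1-/- and 25.8, 27.2, 21.7, 19.7 and 18.1 CPM in Fh1+/+ kidneys (edgeR log2 fold change 0.79, SE 0.36, adjusted p = 0.189). Nmi, the binding partner of Ifi35, was at 36.1, 8.96, 32.3, 20.3 and 12.2 CPM in Fh1-/- and 14.9, 17.4, 11.5, 10.6 and 12.1 CPM in Fh1+/+ kidneys (edgeR log2 fold change 0.72, SE 0.36, adjusted p = 0.217). The apart libraries were the highest of all 20 for both, and without them the log2 fold changes were 0.02 for Parp9 and 0.07 for Nmi.

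The most positive fold change of any member was that of a GTPase, Gbp6, and most GTPases were high in the 2 apart libraries alone. Gbp2, a guanylate-binding protein that coats pathogen membranes, was at 170.1, 9.47, 158, 6.00 and 10.5 CPM in Fh1-/- kidneys at day 10, against 16.3, 25.7, 20.9, 24.5 and 18.3 CPM in Fh1+/+ kidneys. Replicates 1 and 3 were above and replicates 2, 4 and 5 below every Fh1+/+ library (edgeR log2 fold change 1.74, SE 0.89, adjusted p = 0.226, −1.27 without the apart libraries, −0.91 with quality weights in limma-voom). Gbp6 had the same split, at 60.3, 1.29, 48.6, 1.82 and 1.61 CPM in Fh1-/- and 2.64, 4.43, 5.36, 2.39 and 1.85 CPM in Fh1+/+ kidneys (edgeR log2 fold change 2.75, SE 1.09, adjusted p = 0.144, −1.07 without the apart libraries). Irgm1, an immunity-related GTPase that controls autophagy of pathogen vacuoles, was at 374, 68.2, 337, 56.6 and 52.7 CPM in Fh1-/- and 56.9, 76.6, 99.7, 56.7 and 49.1 CPM in Fh1+/+ kidneys (edgeR log2 fold change 1.38, SE 0.59, adjusted p = 0.165, −0.18 without). Gbp7 differed from these. It was at 99.4, 41.0, 73.3, 39.7 and 25.3 CPM in Fh1-/- kidneys and at 27.5, 18.1, 29.7, 14.3 and 10.8 CPM in Fh1+/+ kidneys, high in 4 of 5 Fh1-/- libraries (edgeR log2 fold change 1.47, SE 0.40, adjusted p = 0.0697), and it stayed at 0.83 without the apart libraries. Gbp7 was then the 1 member still higher with an unadjusted p under 0.05.

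Promoters of 3 Gbp genes, which lie in the same stretch of chromosome 3, are shown because their levels differed so much between libraries. At day 10 Gbp2 was high in the apart libraries alone and Gbp7 in most Fh1-/- libraries. Gbp3 followed the Y-linked level as described further on. Capitals mark the same cores as before, all promoters are on the plus strand, and they lie at chr3:142620413-142620712, chr3:142530086-142530385 and chr3:142559794-142560093.
Gbp2: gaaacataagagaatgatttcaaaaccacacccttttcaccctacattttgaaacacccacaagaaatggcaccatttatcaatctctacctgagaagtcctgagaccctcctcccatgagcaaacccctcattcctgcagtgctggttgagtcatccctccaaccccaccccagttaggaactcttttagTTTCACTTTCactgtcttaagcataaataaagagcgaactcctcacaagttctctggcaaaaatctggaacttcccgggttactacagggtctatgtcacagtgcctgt
Gbp7: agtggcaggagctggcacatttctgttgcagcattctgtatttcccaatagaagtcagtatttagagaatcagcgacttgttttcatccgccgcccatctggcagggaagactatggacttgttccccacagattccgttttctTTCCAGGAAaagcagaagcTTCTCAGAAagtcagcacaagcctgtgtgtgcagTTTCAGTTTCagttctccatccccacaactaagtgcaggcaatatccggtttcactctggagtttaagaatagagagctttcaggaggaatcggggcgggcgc
Gbp3: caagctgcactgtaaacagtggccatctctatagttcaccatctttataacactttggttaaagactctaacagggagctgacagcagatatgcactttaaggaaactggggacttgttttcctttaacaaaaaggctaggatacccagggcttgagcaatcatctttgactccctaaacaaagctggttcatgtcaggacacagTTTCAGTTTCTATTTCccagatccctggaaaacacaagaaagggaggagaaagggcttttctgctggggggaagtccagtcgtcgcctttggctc
All 3 held a response element core on the minus strand close to the start site, from −59 to −50 in Gbp2, −53 to −44 in Gbp7, and −45 to −36 and −39 to −30 in Gbp3. Gbp7 also held 2 gamma-activated site cores, from −106 to −98 and −87 to −79. A second Gbp3 start site in the table held neither.

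The apart libraries were above the other 18 for 23 of 51 members (45.1%), against 22.6% of all genes. By subgroup this held for 8 of 10 GTPases and 6 of 9 signalling and ADP-ribosylation genes, but for 2 of 12 Oas, Ifit and Mx genes, namely Oasl1 and Mx2. They were below the other 18 for 2 members, Ifi44 and Ifitm1 (3.92%, against 22.0% of all genes). Without them, 40 of 50 members had a log2 fold change below 0 at day 10 (median −0.55), and the estimates of 17 members turned sign. Then 1 member was higher and 19 lower with p under 0.05 before adjustment (10.8% and 8.33% of all genes). In edgeR 0 passed the threshold (0.0135% of all genes) or an adjusted p under 0.05 alone (0.481%). In this comparison 13 members lay below every Fh1+/+ library (6.08% of all genes) and 0 above (6.38%).

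**Figure D3:**
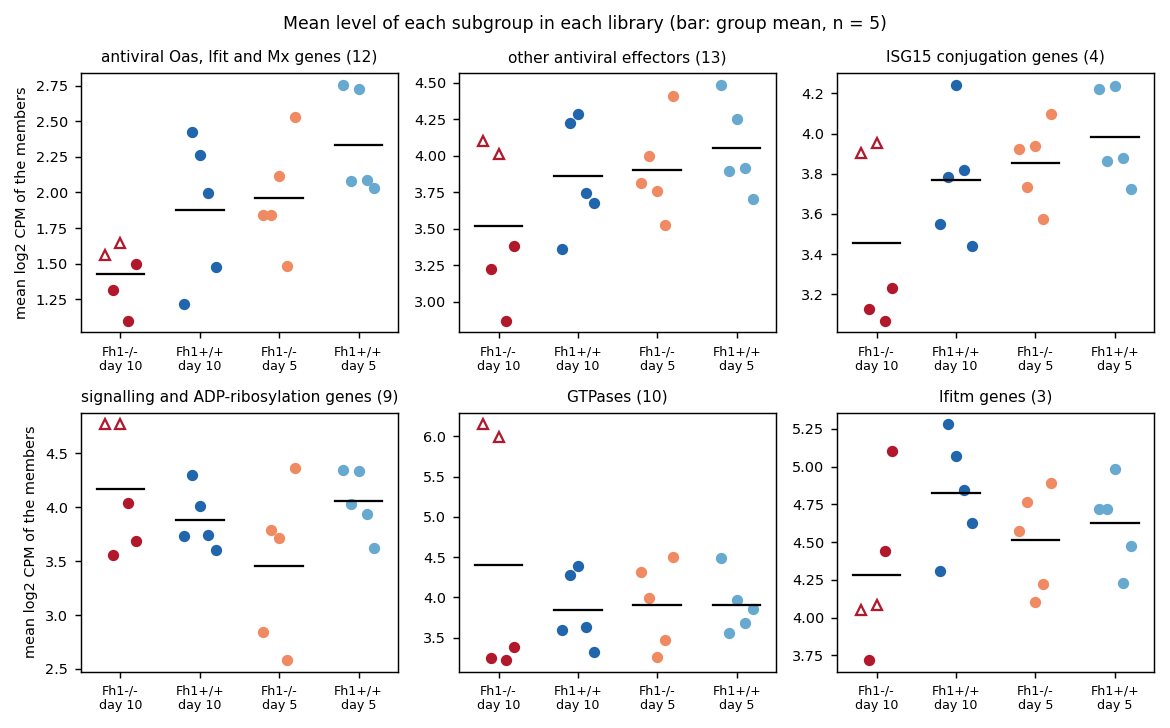
Mean log2 CPM of the members of each subgroup (number of genes in parentheses) in each library. Points are libraries, bars are means of 5, and open triangles are Fh1-/- day 10 replicates 1 and 3. The triangles lie at 6.15 and 5.99 for the GTPases, against 3.32 to 4.38 in Fh1+/+ day 10 kidneys, but at 1.56 and 1.65 for the Oas, Ifit and Mx genes, inside the Fh1+/+ range of 1.22 to 2.42.

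The Ifitm proteins block fusion of virus with cell membranes. Ifitm3 was at 35.8, 25.9, 39.0, 29.6 and 35.2 CPM in Fh1-/- kidneys at day 10 and at 31.7, 64.7, 53.9, 52.0 and 50.1 CPM in Fh1+/+ kidneys, where replicate 1 alone overlapped (edgeR log2 fold change −0.62, SE 0.18, adjusted p = 0.0809). Ifitm2 was at 77.0, 34.9, 100, 49.7 and 64.0 CPM in Fh1-/- and 40.4, 61.7, 60.0, 49.3 and 46.1 CPM in Fh1+/+ kidneys (edgeR log2 fold change 0.33, SE 0.25, adjusted p = 0.399, −0.04 without the apart libraries). Ifitm1 was uneven, at 1.14 to 17.9 CPM in Fh1-/- and 5.95 to 14.5 CPM in Fh1+/+ kidneys.

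At day 5 the interferon-stimulated genes of Fh1-/- kidneys were close to the Fh1+/+ level or slightly below it. Of 51 members tested, 37 had a log2 fold change below 0 (median −0.21, against −0.01 over all genes), and 14 above (27.5%, against 47.7% of all genes). With edgeR 0 passed (0.0347% of all genes did), also at an adjusted p under 0.05 alone (0.0625%), and with DESeq2 0 passed (0.0783% of all genes upwards, 0.0991% downwards). The groups overlapped for every member (0.542% of all genes lay wholly above, 0.361% wholly below). Before adjustment 0 members were higher and 3 lower with p under 0.05 (2.42% and 2.37% of all genes), namely Oas1g, Nmi and Parp9. That count of lower members was 1 to 17 in fits without 1 library (17 without Fh1-/- replicate 5) and 17 with the Y-linked level as a covariate. The shares of all genes in those fits were not counted. These counts therefore show that the result moves with single libraries, not a trait of the members. Oas1g, at 0.424, 0.460, 0.582, 0.294 and 0.692 CPM in Fh1-/- and 1.35, 0.826, 1.58, 1.099 and 0.643 CPM in Fh1+/+ kidneys, was scarce (edgeR log2 fold change −1.17, SE 0.32, adjusted p = 0.621). The GTPases had a median of 0.09, with Gbp2 at 33.9, 20.8, 9.94, 30.9 and 19.1 CPM in Fh1-/- and 22.7, 13.9, 17.8, 13.0 and 20.4 CPM in Fh1+/+ kidneys. The Oas, Ifit and Mx genes had a median of −0.36 (10 of 12 below 0). Rsad2 and Cmpk2 were on the other side, at 0.26 and 0.27, and Rsad2 was at 44.8, 34.0, 19.8, 30.9 and 37.6 CPM in Fh1-/- and 36.8, 26.3, 28.6, 17.4 and 29.6 CPM in Fh1+/+ kidneys.

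The signalling and ADP-ribosylation genes had the lowest subgroup median at day 5 (−0.52, 8 of 9 below 0), and the low values were those of 2 Fh1-/- libraries. Nmi was at 3.86, 10.6, 9.54, 3.58 and 15.8 CPM in Fh1-/- kidneys, against 16.2, 15.5, 16.4, 16.9 and 11.4 CPM in Fh1+/+ kidneys (edgeR log2 fold change −0.82, SE 0.37, adjusted p = 1). Parp9 was at 10.6, 17.4, 19.3, 8.34 and 28.0 CPM in Fh1-/- and 27.6, 27.8, 28.6, 23.7 and 20.8 CPM in Fh1+/+ kidneys (edgeR log2 fold change −0.63, SE 0.28, adjusted p = 1). Replicates 1 and 4 were low for both genes, and the other 3 Fh1-/- libraries were inside or near the Fh1+/+ range. These 2 libraries were below the other 18 for 7 of the 9 genes (Nmi, Parp9, Parp12, Parp14, Dtx3l, Ifi35 and Dhx58) and for 9 of 51 members (17.6%), against 1.62% of all genes. The 2 libraries were picked after these values were seen. Dhx58 was at 0.339 and 0.470 CPM in them and at 1.61 to 4.99 CPM in Fh1+/+ kidneys. Summed leukocyte markers were at 114.9 and 101.8 CPM in these libraries and at 204.6, 122.1 and 211.3 CPM in Fh1-/- replicates 2, 3 and 5, against 125.0 to 191.4 CPM in Fh1+/+ kidneys at day 5. Log2 fold changes at day 5 were below 0 for 12 of the 15 markers tested (median −0.21). Cd8a, the coreceptor of cytotoxic T cells, went the other way, at 1.78, 2.99, 1.16, 3.05 and 2.40 CPM in Fh1-/- kidneys, against 0.898, 0.440, 0.966, 0.659 and 0.964 CPM in Fh1+/+ kidneys, with no overlap (edgeR log2 fold change 1.51, SE 0.32, adjusted p = 0.264, DESeq2 adjusted p = 0.00566). The part of these markers in the result was not tested.

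The genotype difference at day 10 was set against that at day 5 in a fit of all 20 libraries. Of 51 members, 0 passed (0.0335% of all genes did), while DESeq2 passed 1, Rsad2 (1.32% of all genes upwards, 0.487% downwards). For Rsad2 this difference of log2 fold changes was −1.60 (SE 0.36, edgeR adjusted p = 0.0407, under which 1.08% of all genes passed 0.05), and it passed without Fh1-/- day 10 replicate 2 (−1.73, adjusted p = 0.00915 from edgeR). Before adjustment 9 members had a more positive difference at day 10 and 5 a more negative one with p under 0.05 (11.8% and 8.4% of all genes). The 9 were Gbp7, Oasl1, Isg20, Eif2ak2, Plscr1, Ifi35, Nmi, Parp9 and Dtx3l, and the 5 were Rsad2, Ifi44, Oasl2, Cmpk2 and Ifit3b. All 9 signalling genes had a positive difference (median 0.95), and 9 of 10 GTPases did (median 1.32). Without the apart libraries those medians were 0.36 and −0.43, and 1 member was more positive and 9 more negative with p under 0.05 (8.22% and 5.93% of all genes).

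Within Fh1-/- kidneys, day 10 against day 5, 0 of 49 members passed with edgeR (0.576% of all genes did), 6 were higher and 13 lower with p under 0.05 before adjustment (17.9% and 14.4% of all genes), and DESeq2 passed 2 upwards and 7 downwards (5.14% and 3.49% of all genes). At an adjusted p under 0.05 from edgeR, 6 members were lower (11.6% of all genes in either direction). Oasl2 had the lowest adjusted p. It was at 6.53 to 9.66 CPM at day 10 and 15.0 to 27.3 CPM at day 5 (edgeR log2 fold change −1.23, SE 0.20, adjusted p = 0.0114). The others were Rsad2 (−1.30), Cmpk2 (−1.26), Usp18 (−1.03), Zbp1 (−1.56) and Ifit3b (−1.31), with adjusted p between 0.0208 and 0.0323 from edgeR. For 5 members, Oasl2, Rsad2, Cmpk2, Zbp1 and Ifi44, every day 10 library lay below every day 5 library (6.03% of all genes), and for 0 above (6.22%). Without Fh1-/- day 10 replicate 2, Oasl2, Rsad2 and Ifi27l2a passed. Without the apart libraries 0 members passed, 0 were higher and 20 lower with p under 0.05 before adjustment (13.5% and 14% of all genes). Day 10 and day 5 share no library, but this comparison and the genotype comparison at day 10 share the Fh1-/- day 10 libraries.

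In Fh1+/+ kidneys, 0 of 51 members passed between day 10 and day 5 with edgeR or DESeq2 (0% of all genes with either). Before adjustment 1 was higher and 4 lower at day 10 with p under 0.05 (1.99% and 1.98% of all genes). With the Y-linked level as a covariate 21 were lower. The share of all genes in that fit was not counted, so the 21 cannot be read as a trait of the members. The groups overlapped for every member (0.248% of all genes lay wholly above at day 10, 0.31% wholly below). Of the members, 41 had a log2 fold change below 0 (median −0.19) and 10 above 0 (19.6%, against 51.6% of all genes). The mean log2 CPM of all members overlapped between the days, at 3.04 to 3.85 at day 10 and 3.37 to 4.05 at day 5. The members share the same libraries, so their count below 0 does not show a fall with time in control kidneys. Among the Oas, Ifit and Mx genes 11 of 12 were below 0 (median −0.48). Oas1g, at 0.168 to 0.784 CPM at day 10 and 0.643 to 1.58 CPM at day 5, had the most negative value (−1.38).

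Gbp3 and Ifitm2 followed the Y-linked level in both genotypes. Gbp3 was at 74.9 to 160.0 CPM in the 8 libraries of low Y-linked level and at 15.6 to 31.4 CPM in the 12 of high level. The low class held Fh1-/- day 10 replicates 1, 3 and 5, Fh1+/+ day 10 replicates 2 and 3, Fh1-/- day 5 replicates 2 and 5 and Fh1+/+ day 5 replicate 1. Ifitm2 was at 60.0 to 100 CPM in the same 8 and at 34.9 to 49.7 CPM in the others. Both patterns were noticed in these data and are given without a test. In the 18 libraries left without the apart ones, the low class lay above the high class for 2 of 51 members, these genes, against 2% of all genes. In the 10 Fh1+/+ libraries alone it did for 9 (17.6%), against 7.82% of all genes. In Fh1+/+ kidneys Rsad2 was at 36.8 to 47.7 CPM in the 3 low libraries and at 17.4 to 31.4 CPM in the 7 high ones. In Fh1-/- kidneys the classes overlapped for Rsad2. At day 5 it was at 34.0 and 37.6 CPM in the low class and 19.8 to 44.8 CPM in the high class. At day 10 it was at 11.8 to 15.6 CPM in the low class and 7.10 and 18.4 CPM in the high class.

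**Figure D4:**
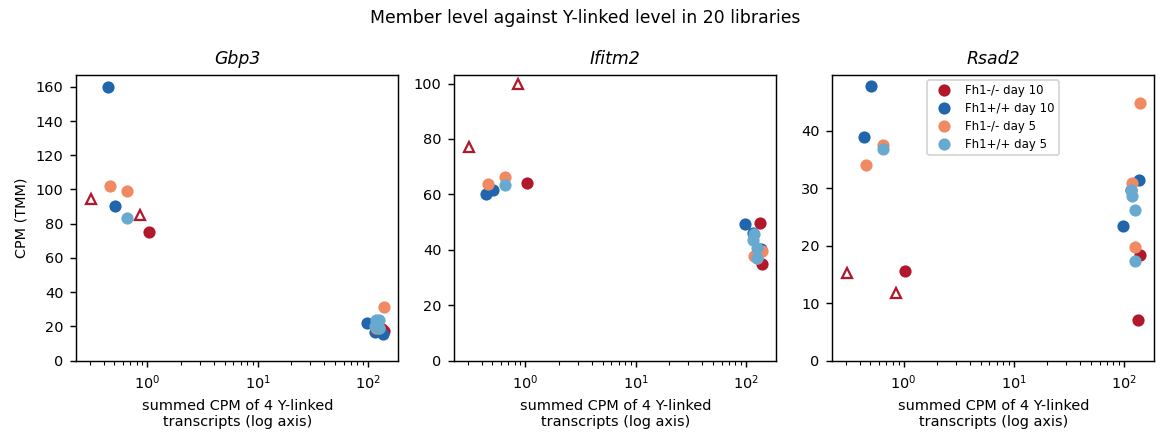
Level in CPM (vertical, linear from 0) of Gbp3, Ifitm2 and Rsad2 against the summed CPM of 4 Y-linked transcripts (horizontal, log axis) in 20 libraries, coloured by group, with Fh1-/- day 10 replicates 1 and 3 as open triangles. Gbp3 lies at 74.9 CPM or more in the 8 libraries at the left and at 31.4 CPM or less in the 12 at the right, in all 4 groups.

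The genotype comparison was therefore repeated within each class, a choice made after seeing the data. At day 10 the low class held 3 Fh1-/- libraries, 2 of them the apart ones, and 2 Fh1+/+ libraries, and the high class 2 and 3. The Oas, Ifit and Mx genes were below the Fh1+/+ level in both, 9 of 11 in each, with medians of −0.84 and −0.52. The GTPases had a median of 1.36 in the low class and −0.24 in the high class. The signalling and ADP-ribosylation genes were mostly above the Fh1+/+ level in both, 7 of 9 in the low class (median 0.33) and 8 of 9 in the high class (median 0.21). The high class holds neither apart library. Before adjustment 1 member was higher and 10 lower with p under 0.05 in the low class (11.4% and 8.55% of all genes), and 3 were higher and 14 lower in the high class (10.6% and 9.67% of all genes). With edgeR 0 members passed in either (0% and 0.0678% of all genes). At day 5, where the low class held a single Fh1+/+ library, the high class was compared alone, 3 Fh1-/- against 4 Fh1+/+ libraries. There 37 of 51 members were below 0 (median −0.38), 0 passed with edgeR (0.0208% of all genes), and 0 were higher and 17 lower with p under 0.05 before adjustment (5.3% and 7.83% of all genes), 7 of them signalling and ADP-ribosylation genes. That class holds Fh1-/- day 5 replicates 1 and 4, the libraries low for those genes.

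Upstream of these genes, transcripts of the interferons themselves were almost absent. Of 21 ligand genes, 19 had no read in either group at day 10 and 18 none in either group at day 5. All 20 libraries together held 12 ligand reads. Ifng had 0 reads in both groups at day 10, and 1 in Fh1-/- and 2 in Fh1+/+ kidneys at day 5. Ifnb1 had 3 reads, all in Fh1+/+ kidneys at day 5. A count of 0 over a group allows up to 0.0318 CPM in Fh1-/- and 0.0332 CPM in Fh1+/+ kidneys at day 10, counting error only.

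The receptor chains were all above the Fh1+/+ level at day 10 (6 of 6, median 0.43), and 2 were higher with p under 0.05 before adjustment (15.1% of all genes). Without the apart libraries 5 of 6 were above 0 (median 0.07) and 1 was higher with p under 0.05 (10.8% of all genes). Ifngr1, the ligand-binding chain for interferon gamma, was at 103, 62.5, 101, 74.2 and 62.1 CPM in Fh1-/- kidneys, against 39.7, 39.4, 45.9, 38.1 and 40.3 CPM in Fh1+/+ kidneys. All 5 Fh1-/- libraries were above all others (edgeR log2 fold change 0.98, SE 0.16, adjusted p = 0.0259, 0.72 without the apart libraries). In Fh1-/- kidneys Ifngr1 rose at day 10 against day 5 (edgeR log2 fold change 1.05, SE 0.16, adjusted p = 0.00973), a call lost without the apart libraries (0.77, edgeR adjusted p = 0.0104). Ifnlr1, a chain of the type III receptor, was at 14.0, 5.77, 14.1, 6.99 and 7.29 CPM in Fh1-/- and 5.33, 6.32, 4.97, 5.09 and 6.51 CPM in Fh1+/+ kidneys, highest in the apart libraries (edgeR log2 fold change 0.76, SE 0.27, adjusted p = 0.118).

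Among 10 kinases, STATs and IRFs, 3 were higher and 1 lower with p under 0.05 before adjustment (15.1% and 11.9% of all genes), and without the apart libraries 0 were higher and 3 lower (10.8% and 8.33% of all genes). Irf5, which drives inflammatory genes in macrophages, was at 11.3, 11.5, 11.7, 9.36 and 9.56 CPM in Fh1-/- kidneys at day 10, against 20.5, 20.8, 20.4, 23.5 and 37.5 CPM in Fh1+/+ kidneys, with no overlap (edgeR log2 fold change −1.20, SE 0.19, adjusted p = 0.021). It fell in Fh1-/- kidneys at day 10 against day 5 (edgeR log2 fold change −1.15, SE 0.14, adjusted p = 0.0062), and without the apart libraries the value was −1.22 (edgeR adjusted p = 0.0116). Irf8, a factor of the myeloid lineage, was at 55.6, 22.9, 68.1, 19.7 and 18.5 CPM in Fh1-/- and 13.8, 18.6, 20.7, 18.9 and 14.2 CPM in Fh1+/+ kidneys, high in the apart libraries (edgeR log2 fold change 1.09, SE 0.38, adjusted p = 0.109). Irf7, the interferon-induced factor that amplifies type I interferon, was at 30.7, 18.8, 32.1, 15.1 and 16.0 CPM in Fh1-/- and 17.7, 40.7, 62.8, 30.01 and 20.9 CPM in Fh1+/+ kidneys (edgeR log2 fold change −0.62, SE 0.36, adjusted p = 0.279). Without the apart libraries Irf7 was at −1.04.

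Of 7 inhibitors, 4 were higher and 1 lower with p under 0.05 before adjustment (15.1% and 11.9% of all genes), and without the apart libraries 3 were higher and 0 lower (10.8% and 8.33% of all genes). Socs3, which blocks JAK kinases at cytokine receptors of the interleukin-6 family, was at 247, 9.41, 264, 48.5 and 28.4 CPM in Fh1-/- kidneys at day 10 and at 3.10, 5.03, 3.48, 5.99 and 3.03 CPM in Fh1+/+ kidneys. Every Fh1-/- library was higher, most of all the apart ones (edgeR log2 fold change 4.84, SE 0.88, adjusted p = 0.0317, 2.81 without them). Cish, another cytokine-induced inhibitor of this family, was at 127, 210.3, 138, 217 and 92.3 CPM in Fh1-/- and 50.8, 60.2, 82.3, 72.7 and 50.5 CPM in Fh1+/+ kidneys (edgeR log2 fold change 1.30, SE 0.25, adjusted p = 0.0351). Socs1, the main inhibitor of interferon gamma signalling in this family, was at 0.936 to 2.27 CPM in Fh1-/- and 0.776 to 1.29 CPM in Fh1+/+ kidneys, and its groups overlapped. Socs1 was highest of all 20 libraries in the apart ones, at 2.27 and 1.99 CPM. Its log2 fold change was 0.42, and −0.06 without them. At day 5, 0 of the 23 tested receptor, kinase, STAT, IRF and inhibitor genes reached an unadjusted p under 0.05.

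**Figure D5:**
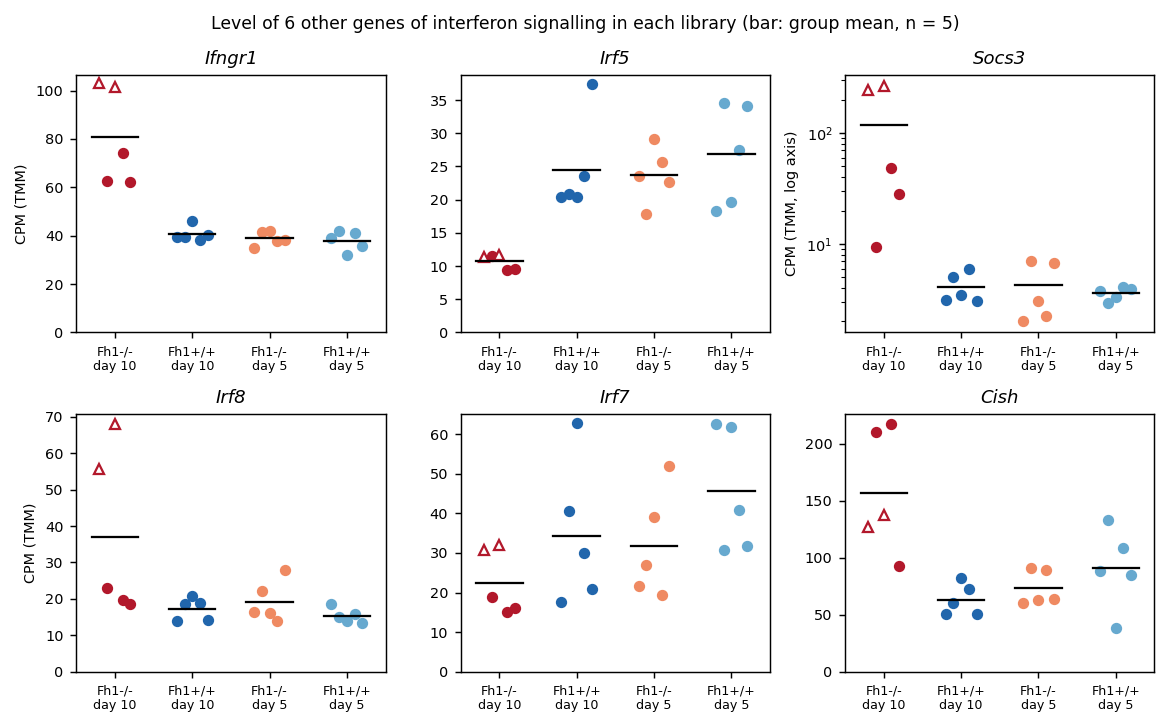
Level in CPM (TMM) of 6 other genes in each library: a receptor chain, IRFs and cytokine-induced inhibitors. Axes are linear from 0 except for Socs3, which is on a log axis. Points are libraries, bars are means of 5, and open triangles are Fh1-/- day 10 replicates 1 and 3. Ifngr1 lies at 62.1 CPM or more in all 5 Fh1-/- day 10 libraries and at 45.9 CPM or less elsewhere, and Irf5 lies at 11.7 CPM or less in them and at 17.8 CPM or more elsewhere.

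Markers of the cell types that can express these genes were at other levels too. Ptprc, which encodes the leukocyte antigen CD45, was at 1.90, 6.95, 1.56, 6.99 and 5.90 CPM in Fh1-/- kidneys at day 10, against 14.7, 10.5, 11.3, 13.0 and 10.8 CPM in Fh1+/+ kidneys. Every Fh1-/- library was below every Fh1+/+ library (edgeR log2 fold change −1.37, SE 0.40, adjusted p = 0.0785). Of 15 tested leukocyte markers of 23 listed, 11 had a log2 fold change below 0 (median −1.07), and 9 were lower and 1 higher (Cd14) with p under 0.05 before adjustment (11.9% and 15.1% of all genes). Their summed level was 149.9 to 1055 CPM in Fh1-/- and 177.8 to 257.0 CPM in Fh1+/+ kidneys, the 2 high values belonging to the apart libraries, where Cd14 alone was at 871 and 964 CPM. None of the defining lymphocyte genes Cd3e and Ms4a1 passed the filter on low counts. Endothelial markers (6 of 6 below 0, median −0.72) and fibroblast markers (6 of 6, median −1.36) were below the Fh1+/+ level as well, and without the apart libraries their medians were −0.17 and −0.89. Their summed levels were 96.7 to 523.7 and 48.4 to 248.0 CPM in Fh1-/- kidneys, against 417.6 to 731.7 and 175.2 to 437.3 CPM in Fh1+/+ kidneys. The part of these markers in the levels of the interferon-stimulated genes was not tested.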

How the data were processed

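Kidney RNA-seq libraries of 4 groups of 5 were analysed. Per the study's methods, the authors captured polyadenylated RNA with a stranded kit, aligned the reads to GRCm38 (STAR 2.6.0c), filtered out poorly mapped reads and adapters (Cutadapt) and counted them per gene (Rsubread, GENCODE). The deposited values are raw counts, not normalized or pooled. Whether strand was used in counting was not given in the sources used here, and without it antisense genes cannot be told apart.

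Each comparison was fitted over all genes with edgeR 4.0.16 in R 4.3.3: TMM, filterByExpr, glmQLFit and glmQLFTest, Benjamini-Hochberg adjustment over all genes tested, calls at adjusted p under 0.01 and absolute log2 fold change over 0.58. Standard errors are the fold change over the root of F. Days were fitted apart, and their difference on all 20 libraries. Subgroup means used a prior count of 2. The fit was tested on simulated data. Alternatives were DESeq2 1.42.0, RLE, no filter or 1 CPM in 5 libraries, adjusted p under 0.05 with no fold threshold, replicate block, Y-linked covariate, limma-voom (limma 3.58.1) with quality weights, 1 fit of all 20 libraries, and libraries left out. Within-class fits were added after seeing the data.

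Members and lists were chosen with earlier results of these data known. Values per library are given for, in each subgroup, the 2 members of lowest p at day 10, the lowest p at day 5 and the highest mean, for members called in either genotype comparison, and for Mx1 and Isg15. Of the other pathway genes, the 2 of lowest p per list, Irf7 and Ifng are named; 1 gene of that rule is not reported here. Isg20, Plscr1, Cmpk2, Oasl1, Gbp3, Ifitm1, Socs1, Herc6, Adar, Eif2ak2 and Cd8a were added after their values were seen. Promoters and positions come from RefSeq (GRCm38.p6) and GENCODE vM21. Over 40 within-group pairs of libraries, chi-square divided by its degrees of freedom lay between 7.49 and 373, so no library was counted as a duplicate.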

Additional observations from a re-analysis of the deposited data

Results flagged for a closer look

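Among 108 sets of 5 libraries (21 named members and 6 subgroup means in 4 groups each), 8 held a library far from the other 4 by Dixon's test at 95%, where chance alone gives about 1 in 20. In Fh1-/- kidneys at day 10 these were Ifit3 in replicate 5 (27.1 CPM, the others 7.43 to 10.4), Oasl2 in replicate 3 (9.66 CPM, the others 6.53 to 7.43) and Irf9 in replicate 2 (21.5 CPM, the others 34.3 to 38.6). In Fh1+/+ kidneys at day 10, replicate 2 stood out for Trim25 (75.6 CPM, the others 91.7 to 94.4) and Dhx58 (5.12 CPM, the others 2.38 to 3.03). In Fh1-/- kidneys at day 5, replicate 5 stood out for Oasl2 (27.3 CPM, the others 15.0 to 16.2) and Mx1 (1.48 CPM, the others 0.352 to 0.465). In Fh1+/+ kidneys at day 5, Nmi was at 11.4 CPM in replicate 5, and the others were at 15.5 to 16.9. Dixon's test looks for a single outlying library. Libraries that stand out together, such as the apart ones for Gbp2 and Gbp6, mask each other and are missed by it.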

How the results depend on the processing

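At day 10 the count of members passing was 0 with edgeR and in each of 10 fits without 1 library, 4 with DESeq2 and with 1 fit of all 20 libraries (Rsad2, Ifi44, Oasl2 and Gbp7 in both), and 1 at an adjusted p under 0.05. For the difference between the days it was 1 with DESeq2 and at an adjusted p under 0.05, and 0 to 1 in fits without 1 library. Within Fh1-/- kidneys it was 9 with DESeq2, 6 at an adjusted p under 0.05 and with 1 fit of all 20 libraries, 3 with the Y-linked covariate, 1 with limma-voom and 0 to 3 in fits without 1 library. Shares of all genes were not counted for the 1 fit of all 20 libraries, the Y-linked covariate, limma-voom or the fits without 1 library. The median log2 fold change at day 10 was 0.13, −0.55 without both apart libraries, −0.38 within the high Y-linked class and 0.02 to 0.35 in fits without 1 library. At day 5 it was −0.21, and −0.37 to −0.10 in fits without 1 library.

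Signs turned at day 10 with limma-voom for Lgals3bp (−0.0248), Trim25 (−0.0073), Gbp2 (−0.91) and Gbp6 (−0.34). They turned without both apart libraries for Lgals3bp (−0.57), Gbp2 (−1.27), Gbp6 (−1.07), Irgm1 (−0.18) and Ifitm2 (−0.0424). Within the high Y-linked class at day 10 they turned for Mx1 (0.0654), Lgals3bp (−0.0385), Gbp2 (−1.34), Gbp6 (−0.55) and Ifitm2 (−0.086). At day 5 they turned within that class for Trim25 (0.0304), Irf9 (−0.0873) and Ifitm2 (−0.16), with the Y-linked covariate for Trim25 (0.0001), Irf9 (−0.10) and Ifitm2 (−0.10), and with limma-voom for Ifitm2 (−0.0579). In fits without 1 library the range crossed 0 for Trim25 at day 10 (−0.0124 to 0.11) and, at day 5, for Gbp6 (−0.20 to 0.57), Gbp7 (−0.0001 to 0.26), Irgm1 (−0.0031 to 0.16), Trim25 (−0.11 to 0.0145), Irf9 (−0.14 to 0.18) and Ifitm2 (−0.0644 to 0.22). The cause was not tested.

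The replicate numbers showed no pairing by this measure: 1 of 10 same-numbered pairs had a correlation of deviations over 0.1 (range −0.51 to 0.33), and 2 of 10 libraries correlated best with their own number. Per the study's methods, controls were littermates treated and killed together with the Fh1-/- mice. The libraries also differed in Y-linked level, and 2 lay apart, so these correlations cannot exclude that equal numbers were littermates. With the replicate block the count passing was 0 at both days and 1 member was higher at an unadjusted p under 0.05 at day 10, against 5 without it. The share of all genes in the fit with the block was not counted. Members such as Mx1, Oas3 and Oas1g rest on few reads, which limits what their levels can show.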
